A study of Solanum lycopersicum with 12 samples.

Results

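The comparison of US + D with US asked what a drought stimulus added to the leaf transcriptome of tomato plants that had already received ultrasound. It used 6 of the 12 libraries of the series, 3 of US + D and 3 of US. The genes were all those that passed a low-count filter, 22157 of the 34075 genes in the table. Of the others, 6463 had no count in any library and 5455 had too few. Both groups were leaves of Micro Tom, a dwarf tomato cultivar, and both were exposed once to airborne ultrasound (30 kHz, 120 W, 5 min). US + D plants were then watered with 10 ml of 20% PEG (polyethylene glycol), which holds back water from the roots, whereas US plants got no PEG. D plants received PEG alone and C plants received neither stimulus. Leaves were taken 48 h after the stimuli, so all values belong to a single time.

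When water is short, plants make the hormone abscisic acid (ABA), which closes stomata and induces genes for protective proteins such as late embryogenesis abundant (LEA) proteins. Tomato leaves answer wounding and chewing insects through the peptide systemin and jasmonate, with proteinase inhibitors and leucine aminopeptidases among the classic products. Ethylene, perceived by a family of receptors, is involved in both kinds of response and in senescence. These pathways are read here from mRNA levels only. In leaf bulk RNA, fewer cells of a type and less RNA per cell cannot be told apart.

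The 6 libraries held between 33640280 and 87164190 counts, and US + D replicate 3 was the deepest. US + D replicate 2 stood apart from the other 5. Its Spearman correlations with them, across the genes tested and on the log2 CPM scale (counts scaled for library size), lay between 0.911 and 0.951. It was more than 2-fold above all the other 5 libraries in 717 genes and more than 2-fold below them in 986 genes, whereas no other library exceeded 135 and 291. The 3 US + D libraries resembled each other (mean rho 0.944) less than they resembled the US libraries (0.958), and without US + D replicate 2 the values were 0.969 for both. The median SD of log2 CPM within US + D was 0.37, or 0.207 without that library, against 0.343 within US. The results that moved most without US + D replicate 2 are therefore given with and without it. The leaf label could not be checked by its defining markers, because no gene of the Rubisco small subunits or light-harvesting proteins carried a description in the sources used here.

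**Figure D1:**
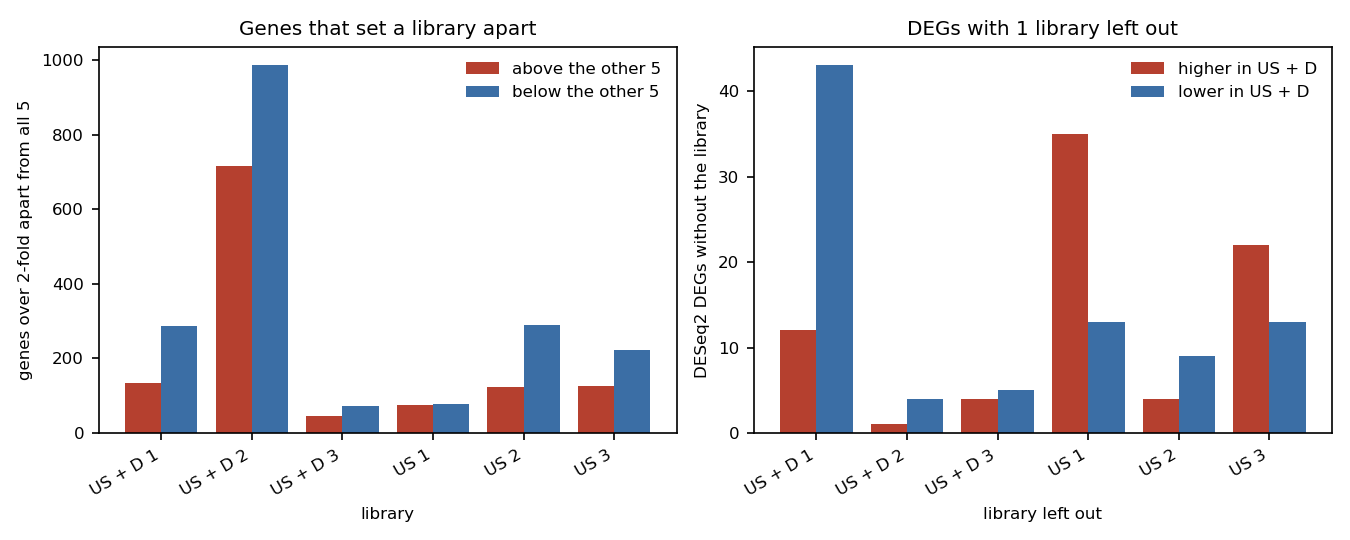
Left, for each of the 6 libraries, the number of genes more than 2-fold above (red) or below (blue) all the other 5 libraries. Right, the number of DEGs that DESeq2 called in US + D vs. US when the library on the x axis was left out, by direction. US + D replicate 2 stands apart with 717 and 986 genes, and the DEGs range between 5 without it and 55 without US + D replicate 1.

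No DEG was found between US + D and US with edgeR's quasi-likelihood test (0 of 22157 genes, 0.0%; adjusted p under 0.05 and log2 fold change beyond 0.58). The smallest adjusted p was 0.999. An unadjusted p under 0.05 was found for 747 genes (3.37%), of which 297 (1.34%) were higher and 450 (2.03%) lower in US + D, while 49.9% of all genes had a log2 fold change above 0. The share of 3.37% lay below the 0.05 that this threshold passes when no gene differs. Limma voom also called 0 genes. DESeq2, the tool of the study, called 11 of 24839 genes (0.0443%), 3 higher (0.0121%) and 8 lower (0.0322%) in US + D, and had 3.98% of genes at an unadjusted p under 0.05. All 11 had an unadjusted p under 0.05 in edgeR and in voom. They were chosen on the same counts, so this is no independent evidence. With the 6 libraries of US + D and US alone DESeq2 called 10 genes, 4 of them among the 11. Without US + D replicate 2 it called 5 genes, 2 of them among the 11.

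The fold changes were small across the transcriptome. The median absolute log2 fold change was 0.208 in US + D vs. US, against 0.284 in D vs. C, where 2458 genes (11.1%) had an unadjusted p under 0.05. A log2 fold change beyond 1 was seen in 5.80% of the genes in US + D vs. US, 666 higher and 618 lower, and in 10.9% in D vs. C, 805 higher and 1620 lower. The libraries of US + D and US did not overlap in 1545 genes (6.97%), 557 higher (2.51%) and 988 lower (4.46%) in US + D. Complete separation of 3 against 3 libraries has an exact two-sided p of 0.1, above the share seen here. Separate libraries alone thus do not mark a gene as different. In D vs. C the libraries did not overlap in 19.5% of the genes. The median SD of log2 CPM was 0.224 within D and 0.367 within C. C replicates 2 and 3 held 106829565 and 99000486 counts, against 37905900 to 41748213 in the D libraries. The part of spread and depth in the differences between the 2 comparisons was not tested.

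A p above the threshold does not show that a gene stayed the same, so the 95% interval of each log2 fold change was examined. It lay wholly within a 2-fold change in either direction for 12001 genes (54.2%, against 48.9% in D vs. C) and within a 4-fold change for 18421. For these genes, a larger effect of the added drought at 48 h lay outside the interval. The share depended on the level of the gene. It was 1.59% of the 3210 genes with a mean under 1 CPM, 38.8% of the 6473 genes between 1 and 10 CPM, 77.01% of the 10705 genes between 10 and 100 CPM and 67.6% of the 1769 genes above that. The median half-width of the interval was 0.48 log2 units between 10 and 100 CPM but 1.70 under 1 CPM. For most weakly expressed genes the interval thus also held changes of more than 2-fold.

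**Figure D2:**
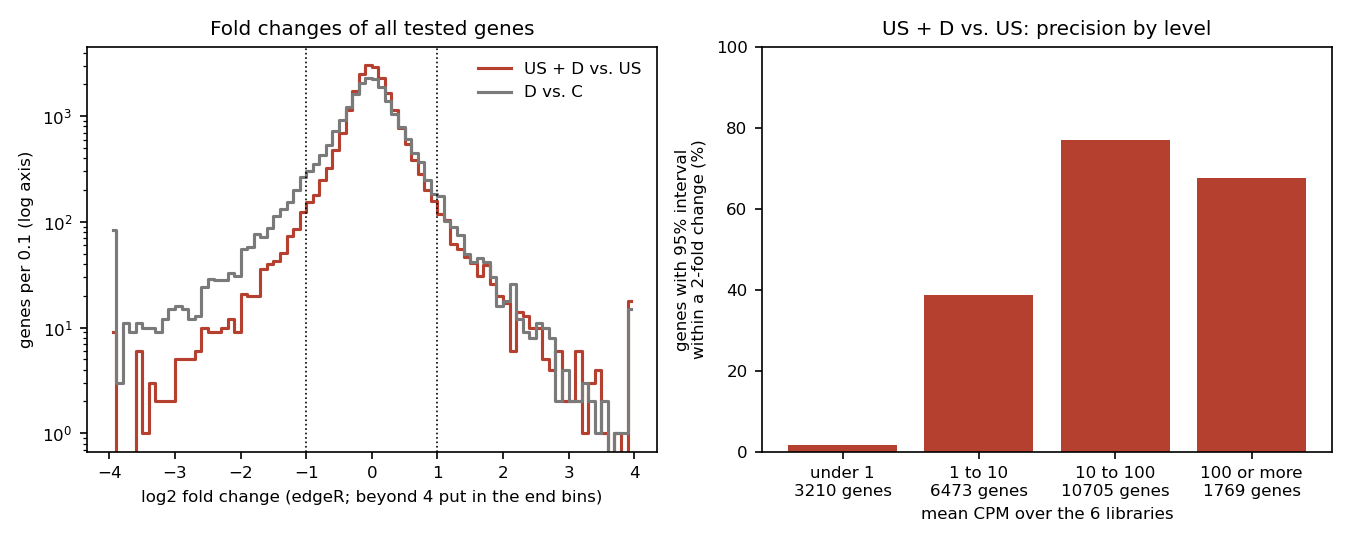
Left, number of genes per 0.1 of the edgeR log2 fold change in US + D vs. US (red) and D vs. C (grey), on a log axis, with dotted lines at a 2-fold change. Right, percentage of the genes at each mean level whose 95% interval in US + D vs. US lay within a 2-fold change. The red curve is the narrower one on the lower side, with 618 genes below -1 against 1620 for D vs. C, and the share peaks at 77.01% for genes between 10 and 100 CPM.

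Among the 11 genes called by DESeq2, the gene described as MTD1 (Solyc08g061490.3.1) had the smallest p in edgeR as well (unadjusted, with an adjusted p of 0.999). It lies on chromosome 8 of the SL4.0 genome, 46930570 to 46931753, plus strand. It was measured at 6.64, 4.59 and 4.77 CPM in US + D replicates 1 to 3, against 18.4, 15.2 and 12.6 CPM in US. Each US + D library was below each US library. The log2 fold change was -1.53 ± 0.24 (SE; 95% interval -2.06 to -1.0; DESeq2 adjusted p = 7.3e-05). In the plants without ultrasound the order was the other way round, with 15.0, 17.8 and 15.3 CPM in D and 8.74, 5.37 and 7.87 CPM in C. The level in US + D was thus close to that in C, whereas US and D were both high.

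The DUF868 domain protein (Solyc06g074500.2.1, chromosome 6, 43759066 to 43759977, minus strand), whose function is not known, was also lower. It had 2.71, 2.89 and 2.21 CPM in US + D and 7.42, 4.97 and 6.21 CPM in US, with a log2 fold change of -1.25 ± 0.22 (95% interval -1.73 to -0.78; DESeq2 adjusted p = 9.0e-05). D had 6.14, 7.26 and 7.88 CPM, against 5.02, 4.79 and 5.07 CPM in C. The US + D libraries lay below all others, those of C included. These were the 2 of the 11 genes that DESeq2 called whichever of the 6 libraries was left out, with adjusted p at most 0.0136 for MTD1 and 0.0255 for the DUF868 protein.

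Sugar transport and senescence were represented among the lower genes by a member each. A SWEET transporter (Solyc06g072630.4.1, chromosome 6), of a family that lets sugars pass through membranes in both directions, had 1.98, 1.70 and 2.55 CPM in US + D and 5.18, 4.24 and 5.59 CPM in US (log2 fold change -1.27 ± 0.28; DESeq2 adjusted p = 0.0314). Its neighbour Solyc06g072620.4.1, another SWEET gene, had 0.759, 1.17 and 1.65 CPM in US + D and 2.44, 2.03 and 4.10 CPM in US (-1.25 ± 0.42; 95% interval -2.19 to -0.31), and DESeq2 did not call it. Senescence regulator S40 (Solyc02g032800.1.1, chromosome 2), of a family tied to leaf ageing, had 3.06, 4.91 and 5.20 CPM in US + D and 8.47, 7.99 and 10.1 CPM in US (-1.01 ± 0.22; DESeq2 adjusted p = 0.0314). For all 3 genes the libraries of the groups did not overlap. DESeq2 lost the call of the first SWEET gene without US + D replicate 1 or 2 or US replicate 1 or 3, with adjusted p up to 0.274, and that of S40 without US + D replicate 2 or US replicate 2 or 3, with adjusted p up to 0.205.

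EREB (Solyc09g089930.3.1, ethylene responsive factor E.2, chromosome 9, 65643193 to 65643915, plus strand), a transcription factor of the ethylene response, was low in both groups that received ultrasound. It had 1.14, 0.292 and 0.738 CPM in US + D and 4.04, 2.03 and 2.29 CPM in US, with a log2 fold change of -1.94 ± 0.44 (95% interval -2.91 to -0.97; DESeq2 adjusted p = 0.0251). Its level without ultrasound was higher, between 8.96 and 12.8 CPM in D and between 18.8 and 32.1 CPM in C. EREB was lower in D than in C as well (D vs. C -1.29 ± 0.41), and the interaction was close to its error in size (-0.65 ± 0.59; edgeR adjusted p = 0.84). DESeq2 lost its call without US + D replicate 2 or 3 or US replicate 1, with adjusted p up to 0.30.

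The other lower genes were weakly expressed. A member of the major facilitator superfamily (Solyc05g055540.3.1), a large class of small-molecule transporters, had 2.14, 1.05 and 1.61 CPM in US + D and 3.86, 10.1 and 4.24 CPM in US (-1.92 ± 0.44; DESeq2 adjusted p = 0.0483). A linker histone-like gene (Solyc04g005920.1.1) had 1.68, 1.55 and 1.51 CPM in US + D and 2.81, 3.82 and 3.45 CPM in US (-1.09 ± 0.25; DESeq2 adjusted p = 0.0181). Solyc10g008260.2.1 had no count in any US + D library, and 0.502, 0.471 and 0.339 CPM in US. Taking 3 counts per library as the limit that a count of 0 allows, the level in US + D was lower by at least 6.44-fold. In D and C it ranged between 0.0289 and 0.701 CPM, so its level varied widely without ultrasound too. DESeq2 lost these 3 calls without single libraries, US + D replicates 2 and 3 and US replicate 2 in each case, with adjusted p up to 0.366, 0.366 and 0.410.

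Malic enzyme (Solyc03g120990.3.1, chromosome 3, 63655793 to 63661025, plus strand), which turns malate into pyruvate and releases carbon dioxide, was a higher gene with separate libraries. It had 68.4, 44.1 and 24.0 CPM in US + D, against 6.71, 6.76 and 9.18 CPM in US. All 3 US + D libraries were above all US libraries, and the log2 fold change was 2.59 ± 0.54 (95% interval 1.39 to 3.79; DESeq2 adjusted p = 0.00517). In D it varied between 8.91 and 45.4 CPM, against 7.33 to 12.5 CPM in C. DESeq2 lost the call without US + D replicate 2 or without US replicate 2, with adjusted p up to 0.0559, although the edgeR log2 fold change without US + D replicate 2 was 2.63.

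The 2 leucine aminopeptidases, enzymes that cut amino acids from the start of proteins and accumulate in wounded tomato leaves, differed strongly between the US + D libraries. Leucine aminopeptidase A1 (Solyc12g010020.3.1, chromosome 12) had 4.93, 271 and 67.8 CPM in US + D, against 7.45, 2.59 and 5.06 CPM in US. Replicate 1 of US + D lay inside the range of US, so the groups overlapped, while the other two were far above it. The log2 fold change was 4.51 ± 1.13 (95% interval 2.01 to 7.01; DESeq2 adjusted p = 0.00517), and 2.87 without US + D replicate 2. The gene beside it, Solyc12g010030.3.1, described as a chloroplastic leucine aminopeptidase, had 8.10, 216 and 49.8 CPM in US + D and 5.02, 4.97 and 5.79 CPM in US (4.11 ± 1.12; DESeq2 adjusted p = 0.0208), and a log2 fold change of 2.48 without US + D replicate 2. DESeq2 lost the call of A1 without US + D replicate 2 or US replicate 2, with adjusted p up to 0.388, and that of its neighbour, up to 0.0983, in each of the 6 fits without a library. The strand setting and the treatment of multiply aligned reads are not given in the sources used here, so reads shared by such similar neighbours may be split between them.

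**Figure D3:**
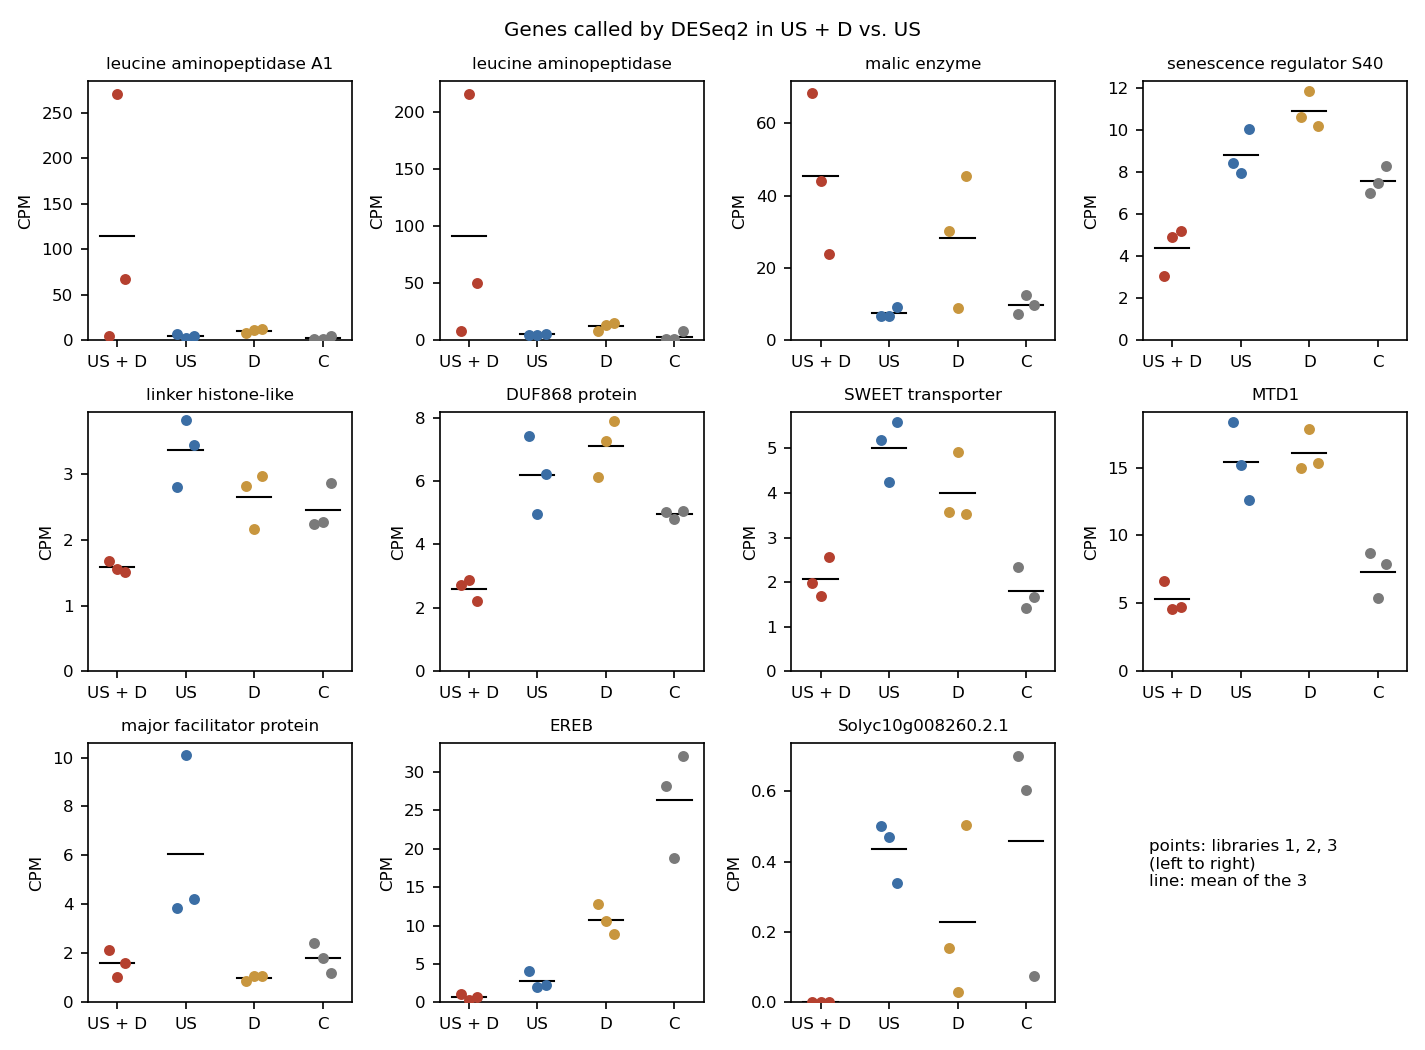
CPM of the 11 genes called by DESeq2 in US + D vs. US, in each library (points) of US + D, US, D and C, with the mean of the 3 libraries (line) and linear axes that start at 0. In 10 of the 11 panels the US + D points lie wholly above or below the US points, the exception being leucine aminopeptidase A1 with 4.93 to 271 CPM in US + D. The genes were chosen on these same libraries.

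Further genes were among the 5 with the smallest edgeR p in their direction, without a call by any of the 3 tools with the 12 libraries. On the higher side, a lipid-transfer type protein (Solyc06g069070.1.1) had 24.0, 19.8 and 29.2 CPM in US + D and 15.9, 7.26 and 9.09 CPM in US (1.18 ± 0.27; 95% interval 0.59 to 1.77). It was also among the genes raised by drought alone, with 31.0 to 35.8 CPM in D and 9.48 to 11.9 CPM in C. The phospholipase PLDb2 (Solyc01g091910.4.1), of enzymes that cleave membrane lipids, had 40.02, 42.5 and 17.96 CPM in US + D and 14.2, 13.3 and 17.3 CPM in US (1.16 ± 0.28). RNA helicase DEAD10 (Solyc02g086660.4.1) had 67.4, 52.2 and 51.8 CPM in US + D and 37.2, 42.4 and 33.2 CPM in US (0.60 ± 0.14). A glycine-rich cell wall protein (Solyc07g052220.1.1) had 1.92, 1.02 and 0.949 CPM in US + D and 0.297, 0.448 and 0.367 CPM in US (1.80 ± 0.44). On the lower side, WRKY transcription factor 37 (Solyc01g079360.4.1) had 20.8, 21.7 and 20.6 CPM in US + D and 38.7, 32.6 and 30.2 CPM in US (-0.69 ± 0.15; 95% interval -1.02 to -0.35; DESeq2 adjusted p = 0.0795). In all of these genes the libraries of the 2 groups were separate, for PLDb2 only by 17.96 against 17.3 CPM. The genes were picked by their p on these libraries, so the separation is no independent evidence. The lipid-transfer type protein, RNA helicase DEAD10 and WRKY transcription factor 37 stand in the study's own list of DEGs for this comparison. In all, 14 genes were described through that list. Genes called by DESeq2 here were among them, such as MTD1, the DUF868 protein, the SWEET gene Solyc06g072630.4.1, S40 and malic enzyme.

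The wound proteins had the largest median difference of the gene lists examined, and their summed level was highest in US + D replicates 2 and 3. Of 16 proteinase inhibitors, leucine aminopeptidases and other wound proteins tested, 14 were higher in US + D, 9 with an edgeR p under 0.05, and 1 was lower with such a p. Over all genes tested, 1.34% were higher and 2.03% lower at that p. The median log2 fold change of the 16 genes was 2.09, against -0.0011 over all genes. All 16 carried a description because they stand in lists the study drew from these libraries, so their direction is not independent evidence. Their summed level was 1919, 20084 and 11016 CPM in US + D replicates 1 to 3, against 2130, 3483 and 3597 CPM in US. US + D replicate 1 was thus below every US library, and replicates 2 and 3 above them. D had 2401 to 4860 CPM and C 510.8 to 1127 CPM.

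Single inhibitors also had their highest values in US + D replicates 2 and 3. Proteinase inhibitor type-2 (Solyc03g098795.1.1), an inhibitor of digestive proteases of insects, had 37.7, 735 and 145 CPM in US + D and 30.1, 30.8 and 30.3 CPM in US (3.33 ± 1.06; 95% interval 0.99 to 5.67). Its log2 fold change was 1.60 without US + D replicate 2. The metallocarboxypeptidase inhibitor Solyc07g007250.4.1 had 906, 5342 and 4396 CPM in US + D and 1057, 1761 and 1134 CPM in US (1.43 ± 0.57; 95% interval 0.16 to 2.70), so that the groups overlapped, and the log2 fold change was 1.03 without US + D replicate 2. Only 3 of the 16 genes had libraries that did not overlap, the type-2 inhibitor and Solyc12g010030.3.1 on the higher side and wound-induced protein 1 (Solyc06g050760.1.1) on the lower. That gene had 19.1, 11.6 and 20.5 CPM in US + D and 25.2, 39.6 and 24.0 CPM in US (-0.79 ± 0.32; 95% interval -1.50 to -0.08), and a log2 fold change of -0.56 without US + D replicate 2. The type-2 inhibitor, the metallocarboxypeptidase inhibitor and wound-induced protein 1 no longer had an unadjusted p under 0.05 without that library. Without US + D replicate 2 the median log2 fold change of the 16 genes was 1.22, and 3 of them had a p under 0.05. The jasmonate list did not share the pattern of these proteins. Prosystemin (Solyc05g051750.3.1), the precursor of systemin, had 146, 98.2 and 115 CPM in US + D and 137, 118 and 142 CPM in US (-0.14 ± 0.22; 95% interval -0.64 to 0.35), and none of the 3 genes of the list had a p under 0.05.

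**Figure D4:**
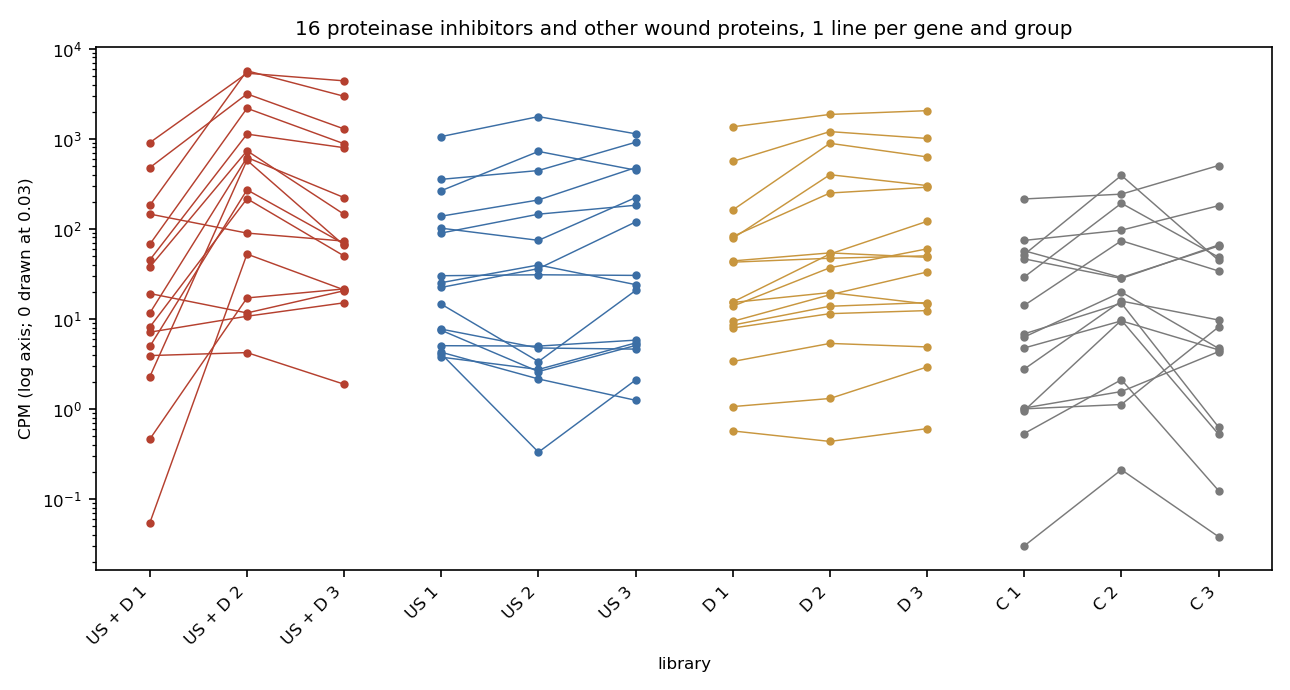
CPM (log axis) of 16 proteinase inhibitors and other wound proteins in each library of US + D, US, D and C, where a line only links the values of a gene within a group. The highest lines are those of US + D replicates 2 and 3, and the summed levels of US + D replicates 1 to 3 are 1919, 20084 and 11016 CPM, against 2130 to 3597 CPM in US.

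LEA and related proteins, which protect membranes and proteins of drying cells, leaned to the higher side without passing the test. Of 10 tested, 9 had a higher level in US + D and 1 had an edgeR p under 0.05, beside 1.34% of all genes higher at that p. The median log2 fold change was 0.71, but 1.14 without US replicate 1 and 1.32 in voom. The gene at that p, Solyc12g010820.2.1, had 2.49, 3.13 and 3.22 CPM in US + D and 1.87, 1.34 and 1.53 CPM in US (0.90 ± 0.33; 95% interval 0.18 to 1.62). In D it had 4.20 to 4.64 CPM, against 1.36 to 3.08 CPM in C. Others varied widely within a group. The LEA protein D-29 gene Solyc12g098900.2.1 had 14.9, 4.85 and 30.0 CPM in US + D and 26.3, 3.35 and 3.95 CPM in US, and the Lea14-like gene Solyc01g095140.4.1 had 63.6, 53.6 and 25.8 CPM in US + D and 2.88, 0.707 and 35.0 CPM in US. All 10 are described through the study's lists of these libraries, and their lean is no independent evidence either.

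Genes of seed storage and lipid bodies, kept as a marker list for seed-like tissue, had low levels. All 4 tested were higher in US + D, 2 of them with an edgeR p under 0.05, beside 1.34% of all genes. Of the 4, 3 are described through study lists that hold these libraries. The vicilin-like gene Solyc02g085590.4.1 had 1.65, 1.32 and 1.71 CPM in US + D and 0.914, 0.0471 and 0.226 CPM in US (1.97 ± 0.73; 95% interval 0.36 to 3.57). An oleosin (Solyc03g112440.1.1), a coat protein of lipid bodies, had 1.06, 1.49 and 1.44 CPM in US + D and 0.411, 0.401 and 0.960 CPM in US (1.18 ± 0.41; 95% interval 0.28 to 2.07). The summed level of the 4 genes was 3.82, 4.85 and 4.62 CPM in US + D and 2.95, 1.53 and 1.86 CPM in US, and it was 10.4 to 11.1 CPM in D and 2.27 to 3.46 CPM in C. The other marker list with members, that of the root, matched 6 CASP-like genes only, with sums of 50.1 to 68.5 CPM in US + D and 58.3 to 75.02 CPM in US. The sums were 105.2 to 148.1 CPM in D and 35.07 to 44.35 CPM in C. Most of each sum came from Solyc11g012590.3.1, with 97.3 to 140 CPM in D and 23.5 to 29.6 CPM in C. Other members went the other way. Their log2 fold changes in D vs. C were -1.55 for Solyc01g067330.3.1, -4.66 for Solyc02g069730.3.1, -2.67 for Solyc06g072550.3.1 and -0.85 for Solyc09g074550.3.1. All 6 genes were lower in US + D, 1 with an edgeR p under 0.05, beside 2.03% of all genes. All 6 are described through study lists that hold these libraries. The part of both marker lists in the other results was not tested.

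All 3 genes of the list for ethylene synthesis, perception and signalling were lower in US + D, 2 with an edgeR p under 0.05. So were 2 of 2 ABA receptor genes, 1 with such a p, beside 2.03% of all genes. All 5, like the ethylene response factors, are described through study lists that hold these libraries, so their direction is not independent evidence. The ethylene receptor ETR5 (Solyc11g006180.2.1) had 16.6, 11.1 and 15.1 CPM in US + D and 29.9, 28.5 and 20.4 CPM in US (-0.88 ± 0.21; 95% interval -1.35 to -0.42). EIN3-binding F-box protein 1 (Solyc12g009560.2.1), which targets the central ethylene factor EIN3 for breakdown, had 86.1, 52.2 and 69.2 CPM in US + D and 156, 120 and 117 CPM in US (-0.92 ± 0.25; 95% interval -1.48 to -0.37). Of 9 ethylene response factors, 7 were lower and 2 of them at that p, EREB and ethylene-responsive factor 1 (Solyc05g051200.1.1), with 9.97, 12.7 and 9.23 CPM in US + D and 18.5, 19.7 and 13.4 CPM in US (-0.70 ± 0.25). The ABA receptor PYL10 (Solyc01g095700.3.1) had 36.3, 55.7 and 58.9 CPM in US + D and 85.6, 73.3 and 76.3 CPM in US (-0.64 ± 0.18; 95% interval -1.05 to -0.23). None of these, apart from EREB, was called by DESeq2.

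Growth, senescence and carbohydrate lists held few members at an unadjusted p under 0.05. Of 8 cytokinin and auxin genes, 2 were lower at that p (1 without US + D replicate 2), both annotated as the enzyme that releases active cytokinins. The first, Solyc11g069570.2.1, had 39.0, 29.3 and 40.6 CPM in US + D and 56.5, 56.1 and 58.4 CPM in US (-0.65 ± 0.15; 95% interval -0.97 to -0.33), and Solyc01g005680.4.1 had a log2 fold change of -0.68 ± 0.30. Of 6 genes of chlorophyll breakdown and senescence, 4 were lower, 3 of them at that p (2 without US + D replicate 2), S40 and a DUF584 senescence regulator (Solyc02g080580.1.1; 1.71, 1.43 and 1.44 CPM in US + D, 2.60, 2.19 and 2.82 CPM in US) among them. Of 5 NAC factors, 4 were lower, 2 of them at that p (0 without US + D replicate 2), Solyc06g060230.3.1 (-0.45 ± 0.18) and Solyc08g006020.4.1 (-1.54 ± 0.60). In the sugar list of 8 genes, a beta-amylase (Solyc01g094580.3.1), which breaks down starch, had 31.8, 35.1 and 30.3 CPM in US + D and 29.5, 26.4 and 23.9 CPM in US (0.29 ± 0.12), beside the 2 SWEET genes. A xyloglucan enzyme (Solyc03g098430.4.1) was the single such gene of 11 expansin and xyloglucan genes (0.65 ± 0.25), and a 3-ketoacyl-CoA synthase of wax synthesis (Solyc11g072990.1.1) the single one of 5 cuticle genes (-0.66 ± 0.27). All 5 genes of respiratory burst oxidases and class III peroxidases were lower, between -2.67 and -0.97, and 1 had an edgeR p under 0.05. The heat shock list (1 of 5 at that p), clock genes (0 of 4) and pathogenesis-related proteins (0 of 5) gave no more. In all, 31 of 111 list members had an edgeR p under 0.05 (21 without US + D replicate 2), beside 3.37% of all genes tested. This share is no independent evidence, since 1111 of the 1191 described genes tested were described because the study had listed them as DEGs.

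The genes that drought changed without ultrasound were examined in US + D vs. US. They were taken from D and C alone, with DESeq2 on those 6 libraries, so that none of the libraries compared here had a part in the choice. Of 356 genes raised in D (1.5% of 23724), 353 passed the filter, and of 300 lowered (1.26%), 297 did. Chosen with the replicate number as a block, the sets held 528 and 306 tested genes, 283 and 185 of them shared, with medians of 0.05 and -0.15 in US + D vs. US. Without the block, the median log2 fold change of the raised genes was 1.37 in D vs. C and 0.01 in US + D vs. US. Of the 353 genes, 179 had a higher and 174 a lower level in US + D than in US. At an edgeR p under 0.05, 20 were higher and 16 lower, 10.2% in all against 3.37% of all genes. The libraries did not overlap in 9 of them on the higher and 17 on the lower side, 7.37% in all beside 6.97% of all genes. The quartiles were -0.30 and 0.35. For 130 of the 353, the upper end of the 95% interval was under a log2 fold change of 0.58, and for 212 it was under 1.

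Drought-lowered genes were more often lower than higher in US + D. Their median log2 fold change was -1.26 in D vs. C and -0.09 in US + D vs. US, and 180 of the 297 were lower in US + D. At an edgeR p under 0.05, 11 were lower and 3 higher, 4.71% in all against 3.37% of all genes. The libraries of the 2 groups did not overlap in 16 genes on the lower and 0 on the higher side, 5.39% in all beside 6.97% of all genes. DESeq2 called 3 of the raised and 1 of the lowered genes in US + D vs. US. Of these, leucine aminopeptidase A1 and EREB moved in the direction of drought, whereas MTD1 and the SWEET gene, both raised in D, were lower in US + D. The values of D vs. C are those that chose the genes, which favours large values in that comparison. The share of this choice in the gap between the 2 comparisons was not tested. Without US + D replicate 2 the medians were 0.04 and -0.10. Without US replicate 2 both turned in sign, to -0.145 and 0.092, and without US + D replicate 3 the first did, with -0.076 and -0.107.

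**Figure D5:**
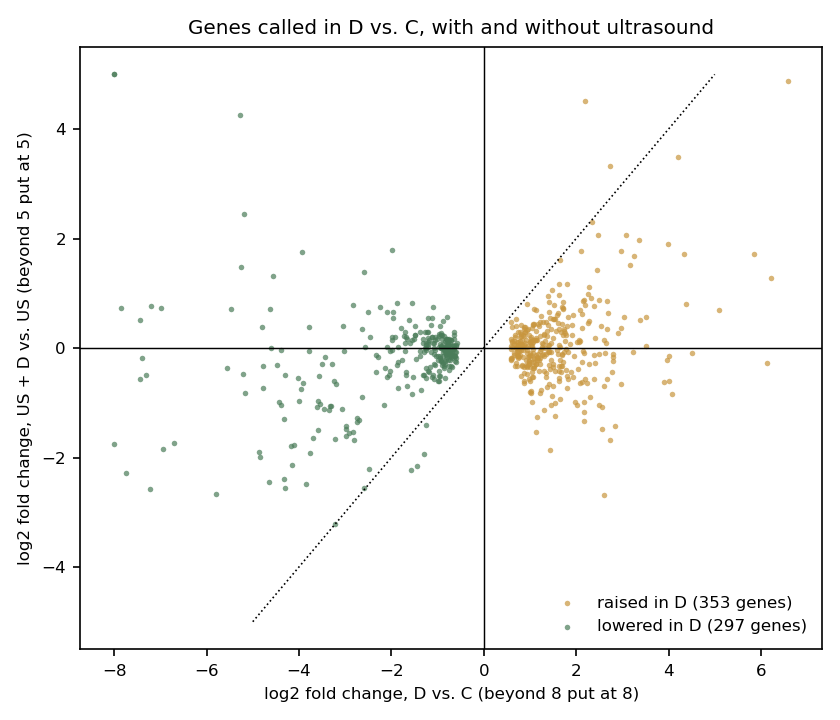
Each point is a gene called by DESeq2 in the 6 libraries of D and C, raised (353, ochre) or lowered (297, green). The x axis is the edgeR log2 fold change in D vs. C, the y axis that in US + D vs. US, and the dotted line marks equal values. Both clouds lie around 0 on the y axis, with medians of 0.01 and -0.09, and not along the dotted line.

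Individual drought genes, named here after their values were seen, illustrate these medians. The CASP-like gene Solyc11g012590.3.1 had 33.5, 34.4 and 46.3 CPM in US + D and 51.7, 32.9 and 36.3 CPM in US, while it had 140, 121 and 97.3 CPM in D and 29.6, 23.5 and 26.0 CPM in C. Its log2 fold change in US + D vs. US was -0.08, with a 95% interval between -0.55 and 0.39, which leaves out the 2.18 seen in D vs. C. A LEA gene (Solyc02g085150.4.1) stayed between 0.551 and 0.906 CPM in US + D and between 0.306 and 1.21 CPM in US, against 3.70 to 7.53 CPM in D and 0.276 to 0.384 CPM in C. An enzyme of cytokinin release (Solyc04g081290.3.1) had 11.95, 7.69 and 7.30 CPM in US + D and 22.2, 7.14 and 12.1 CPM in US, and 45.7 to 50.1 CPM in D against 10.5 to 11.5 CPM in C. Among the lowered genes, the cyclic nucleotide-gated ion channel 4 (Solyc10g006800.4.1) had 94.5, 100 and 112 CPM in US + D and 112, 84.9 and 168 CPM in US, beside 26.9 to 46.2 CPM in D and 98.9 to 174 CPM in C. In these 4 genes US + D and US overlapped and D was apart from all the others, from C by the choice of the genes. Other drought genes differed between US + D and US. The drought-raised lipid-transfer type protein and vicilin-like gene described above had log2 fold changes of 1.18 and 1.97. The drought-lowered defensin-like gene Solyc07g009230.3.1 had 1.63, 0.702 and 1.03 CPM in US + D and 3.77, 5.23 and 1.497 CPM in US. It had 0.463 to 0.675 CPM in D and 3.34 to 13.6 CPM in C. Its log2 fold changes were -1.64 (95% interval -2.97 to -0.32) in US + D vs. US and -3.70 in D vs. C.

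Across all 22157 genes the log2 fold changes of US + D vs. US and D vs. C, which share no library, had a weak relation, with Pearson's r of 0.05 and Spearman's rho of 0.02. Genes are not independent replicates, and all points share the same scaling, so these are given without a p. Within the genes chosen for their change in D vs. C, r was 0.31 and rho 0.11 over the drought-raised and r -0.07 and rho 0.24 over the drought-lowered genes. Without US + D replicate 2 the values over all genes were 0.14 and 0.10. The control libraries weighed more, since r was 0.28 without C replicate 2 and -0.12 without C replicate 3. Of the 747 genes at an edgeR p under 0.05 in US + D vs. US, 148 had such a p in D vs. C as well, 78 in the same and 70 in the opposite direction.

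The difference between both drought responses was tested by the interaction, (US + D minus US) minus (D minus C). EdgeR called 0 genes (0.0%), with 1422 at an unadjusted p under 0.05 (6.42%), voom called 1, and DESeq2 called 106 of 22220 (0.477%). MTD1 had an interaction of -2.66 ± 0.33 on the log2 scale (edgeR adjusted p = 0.175; DESeq2 adjusted p = 2.9e-09). For the SWEET gene Solyc06g072630.4.1 it was -2.41 ± 0.40 and for the DUF868 protein -1.77 ± 0.30, both with an edgeR adjusted p of 0.327. These genes and S40 were the 4 of the 11 DESeq2 genes that DESeq2 also called in the interaction. They had been picked for their difference between US + D and US, which is one part of the interaction.

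The 5 target genes of the study were also examined. In the paper's naming the target EX is EXORDIUM-like 5 and the target MYB is MYB24-like. The descriptions carried by the identifiers used here differ for both. TIP (Solyc03g019820.3.1, tonoplast intrinsic protein 3.2, chromosome 3, 55819202 to 55820542), a water channel of the vacuole membrane, had 7.07, 1.64 and 15.2 CPM in US + D and 14.3, 0.377 and 0.141 CPM in US, while it had 29.3 to 47.0 CPM in D and 0.844 to 1.55 CPM in C. The single high US library, replicate 1, lay among the US + D values. The log2 fold change of TIP was 0.70 ± 1.22 (95% interval -2.0 to 3.39), but 4.91 without US replicate 1, where DESeq2 called it (adjusted p = 1.9e-06), and -0.18 without US + D replicate 3. CHL (Solyc09g065620.3.1, chlorophyllase), an enzyme that splits chlorophyll, had 30.5, 36.9 and 25.8 CPM in US + D, 31.9, 13.5 and 40.2 CPM in US, 28.9 to 42.5 CPM in D and 5.17 to 10.5 CPM in C. Its log2 fold change in US + D vs. US was 0.12 ± 0.37. Every library of the 3 treated groups was above every C library, while US + D and US overlapped.

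EX (Solyc10g074540.1.1, EXORDIUM-like 3), of a family linked to cell expansion, had 67.4, 110 and 20.9 CPM in US + D and 53.03, 73.8 and 119 CPM in US (-0.31 ± 0.74), against 3.61 to 7.35 CPM in D and 2.44 to 21.1 CPM in C. US + D and US overlapped, all their libraries lay above D, and US + D replicate 3 lay just below the highest C library. ARGOS (Solyc12g096570.1.1), an auxin-regulated gene of organ size, had 0.434, 0.175 and 0.0351 CPM in US + D and 0.685, 0.636 and 0.565 CPM in US, with separate libraries (-1.63 ± 0.64; 95% interval -3.05 to -0.21), and 2.43 to 4.43 CPM in D and 5.598 to 8.72 CPM in C. Its log2 fold change was -2.72 without US + D replicate 1, where DESeq2 called it (adjusted p = 0.00871), and -1.04 without US + D replicate 3. The lowest US + D value of ARGOS was that of 3 counts. MYB (Solyc05g053150.2.1, R2R3MYB 71) was low in both groups, with 0.298, 0 and 0.691 CPM in US + D and 0.411, 0.519 and 0.198 CPM in US (-0.14 ± 1.53). It had no count in D and 0.0850, 0.0549 and 2.69 CPM in C.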

How the data were processed

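Leaf RNA was sequenced from 12 samples, 3 each of US + D, US, D and C. The labels name these as biological replicates. The authors deposited 1 table of raw gene counts. Per the labels, reads were trimmed with fastp and aligned with HISAT2. The strand setting and the handling of multiply aligned reads are not given in the sources used here. Descriptions came from the lists in the study's supplementary tables, so 1191 of the 22157 genes tested had one.

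CPM were computed from the deposited counts, scaled by TMM. US + D was compared with US by edgeR 4.0.16 (filterByExpr, quasi-likelihood test, 4 group means over 12 libraries, Benjamini-Hochberg adjustment, R 4.3.3). SE were taken as the fold change divided by the root of F. DESeq2 1.42.0 and limma voom 3.58.1, other filters and scalings, thinned counts, a replicate block and fits without each library were the alternatives. The genes named were DESeq2 DEGs, the 5 genes with the smallest p in each direction, study targets, and list members with a p under 0.05 and separate libraries or with the highest CPM. Other members of the wound, LEA and marker lists, and the drought genes, were named after their values were seen. Members and lists were chosen with earlier results of these data known. A pattern that collected wrong genes into the NAC list was corrected. Deviations of D and C libraries with the same replicate number correlated at 0.142, 0.26 and 0.223. The labels name no pairing, and different numbers were not compared for D and C. For US + D and US the deviations of the same numbers correlated at -0.064, -0.279 and -0.249. The choice of drought genes with a block was added after seeing the data, as were the list counts without US + D replicate 2.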

Additional observations from a re-analysis of the deposited data

How the results depend on the processing

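The number of DEGs in US + D vs. US was 0 in edgeR and voom, 11 in DESeq2 and 10 in DESeq2 with the 6 libraries alone, and between 0 and 55 without single libraries. At an unadjusted p under 0.05, edgeR gave 747 genes, voom 1663 and edgeR with the 6 libraries 472, and the fits without single libraries between 622 and 1697. Of the 747 genes, 722 had such a p in DESeq2, 585 in voom and 337 without US + D replicate 2. The median absolute log2 fold change was 0.238 in DESeq2, 0.254 in DESeq2 with the 6 libraries, 0.237 with no filter, and 0.211 to 0.282 without single libraries. Across genes, r with D vs. C ranged between -0.12 and 0.275 and rho between -0.128 and 0.225 without single libraries. The interaction had 106 DEGs in DESeq2, 1 in voom and between 0 and 214 without single libraries. The causes were not tested. Of 879 alternatives for 40 genes, 805 kept direction and side of the threshold, 59 passed it, and 15 in 4 genes reversed. EdgeR called none of the 40 genes in the main fit, so the 805 are alternatives that stayed without a call. In voom the log2 fold change was 0.40 for MYB, 3.41 for TIP, -1.37 for EX and -3.45 for ARGOS. Without single libraries it ranged between -1.32 and 0.43 for MYB, -0.18 and 4.94 for TIP, -0.21 and 0.48 for CHL, -0.88 and 0.14 for EX and -2.89 and -1.02 for ARGOS. The median of the drought-raised genes was 0.161 in voom, 0.163 without US replicate 1 and -0.011 with a replicate block.

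Samples of US + D and US share only a replicate number. The deviations of the same numbers correlated at -0.064, -0.279 and -0.249, and 0 of 3 US + D libraries correlated best with their own number. With a replicate block edgeR called 0 genes and found 897 at an unadjusted p under 0.05, of which 611 were among the 747. The block changed no call of the 40 genes, as edgeR called none of them with or without it. Promoter motifs were planned and not run. Depth and spread limit genes under 1 CPM, where the median half-width of the interval was 1.70 log2 units.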
